A study of Mus musculus with 28 samples.

Results

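Kupffer cells were studied here as single wells of a table of sorted liver cells that are not hepatocytes. A well was counted as a Kupffer well if it held at least 300 unique molecular identifiers (UMIs, 1 per captured mRNA molecule) of genes, at least 4 UMIs summed over Clec4f, Cd5l, C1qa, C1qb, C1qc, Vsig4, Folr2 and Timd4, and at most 2 UMIs summed over the endothelial and lymphoid or dendritic genes Ptprb, Kdr, Cd3g, Cd79b, Siglech and Xcr1. The rule found 315 Kupffer wells among 2692 wells with at least 300 UMIs, out of 3720 wells in all, and the 2377 remaining kept wells were the comparison. Because the wells were chosen by these transcript counts, the levels of those 14 genes are a description of the choice and not a result.

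The study sequenced liver cells of male C57BL/6 mice with MARS-seq, a plate method that counts the 3' ends of mRNA molecules from single sorted wells. The single cells were liver non-parenchymal cells from 2 mice, aged 3 months (5 libraries) and 4 months (6 libraries). A second table held hepatocytes sorted with an attached CD31+ cell, from 3 mice aged 6, 7 and 7 weeks (17 libraries). All mice were fasted for 2 h, were anesthetized with ketamine and xylazine, and had the liver digested with Liberase Blendzyme 3 or Collagenase D; none carried an allele or a treatment that set the groups apart. No source maps wells to libraries or mice, so each table is 1 sample, no difference was tested, and no p-value was computed. Levels are UMIs per 1000000 gene UMIs of the wells concerned, and all intervals are 95% intervals that cover counting error only, not the spread between mice.

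Kupffer cells are the resident macrophages of the liver. They sit in the sinusoids next to the endothelium and take up particles, aged red blood cells, modified lipoproteins and bacterial products from portal blood. They depend on signalling through the colony stimulating factor receptor Csf1r, and their identity genes are known to be held by factors such as the oxysterol receptor Nr1h3.

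Kupffer wells held 402625 UMIs, with a median of 948 per well (302 to 5531) and a median of 567 genes, against a median of 690 UMIs and 457 genes in other wells. They were 11.7% of kept wells and gave 16.3% of their UMIs. Well numbers fell into 11 blocks the size of a well plate, 5 in a lower and 6 in an upper run of numbers. Kupffer wells made up 8.91% to 20.1% of kept wells (median 13.02%) in 8 of the blocks. In the other 3 blocks, all in the upper run, none of 359 kept wells was a Kupffer well, which allows a share of up to 0.836%, and 295 of the 359 were endothelial, 1 lymphoid and none dendritic by the gates given below. Labels do not say how the blocks were sorted.

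The 8 markers that chose the wells were mostly found together, and 2 wells rested on 1 of them. A Kupffer well held a median of 24 marker UMIs (quartiles 11 and 47, range 4 to 251), or 2.91% of its UMIs, and a median of 6 of the 8 markers, with all 8 in 66 wells. The lectin Clec4f reached 3628, 6870 and 9087 per 1000000 in the lowest, median and highest of the 8 blocks, against 59.3, 120 and 193 in other wells of those blocks. Cd5l, a secreted scavenger protein that blocks macrophage death, reached 3175, 5067 and 7912 against 45.6, 84.4 and 186. The C1q chains, the recognition part of the classical complement pathway, stood at 3445 (C1qa), 5914 (C1qb) and 4699 (C1qc) over all Kupffer wells. The complement receptor Vsig4 stood at 1781, the phosphatidylserine receptor Timd4 at 817 and the folate receptor Folr2 at 805. Because the rule set them, these 8 genes stood far apart from other wells in every block.

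Transcripts released into the suspension add UMIs to wells that do not express a gene, so shares of wells were read beside those of lymphoid wells. After each well was thinned to 300 UMIs, Clec4f was present in 68.3% of Kupffer wells (62.8% to 73.4%) and 3.72% of lymphoid wells, whose median depth was 897.5 UMIs; before thinning the shares were 80.3% and 8.93%. C1qb was present in 77.5% and 1.93% after thinning, Vsig4 in 35.9% and 0.744%, and Timd4 in 16.5% and 0.595%. Absence of Timd4 or Folr2 from a well was therefore not informative at this depth.

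The label was checked with 12 other Kupffer cell genes that the rule did not use: Marco, Cd163, Slc40a1, Fcna, Emr1, Csf1r, Spic, Nr1h3, Il18bp, Hpgd, Ccl24 and Cfp. All 12 were at least 2-fold higher in Kupffer wells, where 9.14% of all 9462 genes with at least 30 UMIs were, and their summed level was 15329 against 665. The count is a description only: Marco, Nr1h3, Spic and Ccl24 reached 30 UMIs through Kupffer wells (other wells held 21, 26, 10 and 3), and the 12 were chosen with earlier results of these data known. At the edge of the rule the wells differed less. The 13 wells with exactly 4 marker UMIs had a summed level of these 12 genes of 1489 (909 to 2299), and the 29 wells with 3 marker UMIs, just outside, had 1339 (961 to 1816). Wells with 5 to 9 marker UMIs had 7707, and the 250 wells with 10 or more had 16502. The intervals of the 13 and the 29 wells overlapped, and 11 further wells with 4 or more marker UMIs were left out for more than 2 opposing UMIs.

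The promoter windows of 4 genes are shown because Clec4f, Cd5l and Vsig4 define the wells and Cd207 lies next to Clec4f in the genome and was among the genes furthest above other wells. Each is the 250 bases before the annotated start in RefSeq, build GRCm38.p6, written 5' to 3' on the gene's strand; the deposited counts themselves were made on mm9. Capitals mark GAGGAA or its complement TTCCTC, the core of sites of the ETS factor PU.1, and TGCTGA or its complement TCAGCA, a short MAF recognition element.
Clec4f (chr6:83656117-83656366, minus strand): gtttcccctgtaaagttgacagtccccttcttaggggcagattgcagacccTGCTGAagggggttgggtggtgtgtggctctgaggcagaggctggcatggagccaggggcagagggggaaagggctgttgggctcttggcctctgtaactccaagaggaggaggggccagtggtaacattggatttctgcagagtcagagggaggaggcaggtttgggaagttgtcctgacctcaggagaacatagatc
Cd207 (chr6:83677858-83678107, minus strand): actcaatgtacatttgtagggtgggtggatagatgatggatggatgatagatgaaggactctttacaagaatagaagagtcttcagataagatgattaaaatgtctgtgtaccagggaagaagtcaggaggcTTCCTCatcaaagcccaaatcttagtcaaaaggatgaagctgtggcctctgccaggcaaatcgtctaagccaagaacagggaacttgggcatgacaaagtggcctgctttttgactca
Cd5l (chr3:87357631-87357880, plus strand): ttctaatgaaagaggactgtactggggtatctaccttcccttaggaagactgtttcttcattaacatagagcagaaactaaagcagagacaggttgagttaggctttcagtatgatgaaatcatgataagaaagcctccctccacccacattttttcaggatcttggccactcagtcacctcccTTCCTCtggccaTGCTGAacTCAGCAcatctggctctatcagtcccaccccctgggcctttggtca
Vsig4 (chrX:96293439-96293688, minus strand): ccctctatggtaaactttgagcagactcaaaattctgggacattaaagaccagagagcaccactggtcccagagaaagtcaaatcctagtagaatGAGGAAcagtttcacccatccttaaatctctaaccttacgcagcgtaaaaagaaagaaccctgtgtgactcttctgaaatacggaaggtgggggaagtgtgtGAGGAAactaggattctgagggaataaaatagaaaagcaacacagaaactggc
In these windows Cd5l held TTCCTC and, downstream, TGCTGA and TCAGCA 2 bases apart; Vsig4 held GAGGAA in 2 places, Cd207 TTCCTC once and Clec4f TGCTGA once. In windows of these 250 bases, on either strand, GAGGAA was found in 4 of 7 markers with an entry (C1qb, C1qc, Cd5l and Vsig4) and in 23.1% of 27025 promoters, and TGCTGA in 5 of 7 (C1qb, Cd5l, Clec4f, Folr2 and Timd4) and in 15.8%. Of 12 of the 15 genes furthest above other wells that had an entry, 4 held GAGGAA (Cd207, Fcna, Lilra5 and Marco) and 5 held TGCTGA (C3ar1, Cxcl13, Fcna, Fpr1 and Gbp2b). A match is a description of the letters only.

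Among themselves, 28 of the 315 wells held only C1q UMIs among the markers and 287 held at least 1 UMI of Clec4f, Cd5l, Vsig4, Folr2 or Timd4. The 28 were not shallow: their median was 1422.5 gene UMIs against 907 in the 287, and 19 of them held 10 or more C1q UMIs. They had no UMI of Marco or Fcna, which were present in 80 and 190 of the 287 wells, and 1 UMI of Cd163 against 333. The iron exporter gene Slc40a1 stood at 237 in them and at 2792 in the 287 (log2 ratio -3.56, -4.62 to -2.67), and properdin (Cfp) at 142 and 2439. The macrophage genes Csf1r (2201 against 3649) and Lyz2 (8332 against 6402) lay closer together. In the other direction, the fractalkine receptor Cx3cr1 had 42 UMIs in 14 of the 28 wells and 13 UMIs in 6 of the 287 (log2 ratio 4.78, 3.86 to 5.81), and the monocyte chemokine receptor Ccr2 34 UMIs in 7 wells against 26 in 10. The class II invariant chain Cd74 stood at 18534 against 5272, H2-Aa at 13682 against 4076 and H2-Eb1 at 10534 against 2386. Of the 12 Kupffer cell genes outside the rule, Emr1 (473 against 860), Hpgd (899 against 1729) and Spic (71.0 against 88.8) also differed less than 2-fold. Among other monocyte genes, Plac8 was higher in the 28 wells (710 against 297) and fibronectin (Fn1) lower (71.0 against 236). The 28 wells therefore went against the Kupffer label in several, but not all, genes that the rule did not use. They were spread over 7 blocks (2, 4, 2 and 2 wells in the lower run, 3, 7 and 8 in the upper run). This division was made after the values were seen and is a description. When a well instead needed 2 UMIs of the 5 markers other than C1q, 312 wells were Kupffer wells and 815 genes stood at least 2-fold higher, against 865 under the rule.

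Across all genes, Kupffer wells stood apart from other wells by more genes on the lower than on the upper side. Of 9462 genes with at least 30 UMIs (the 14 genes of the rule left out), 865 (9.14%) were at least 2-fold higher in Kupffer wells and 2473 (26.1%) at least 2-fold lower; 184 had no UMI in Kupffer wells. The median log2 ratio of these genes was -0.34 and the central 95% ran from -3.35 to 2.36. When the ratios were centred on genes with at least 100 UMIs, the median became -0.06 and the calls split into 1257 higher and 1804 lower, so that 41.1% of calls were on the higher side. In the plot of gene levels, the 15 genes named for the largest ratios lie in one band with the genes of the rule.

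**Figure D1:**
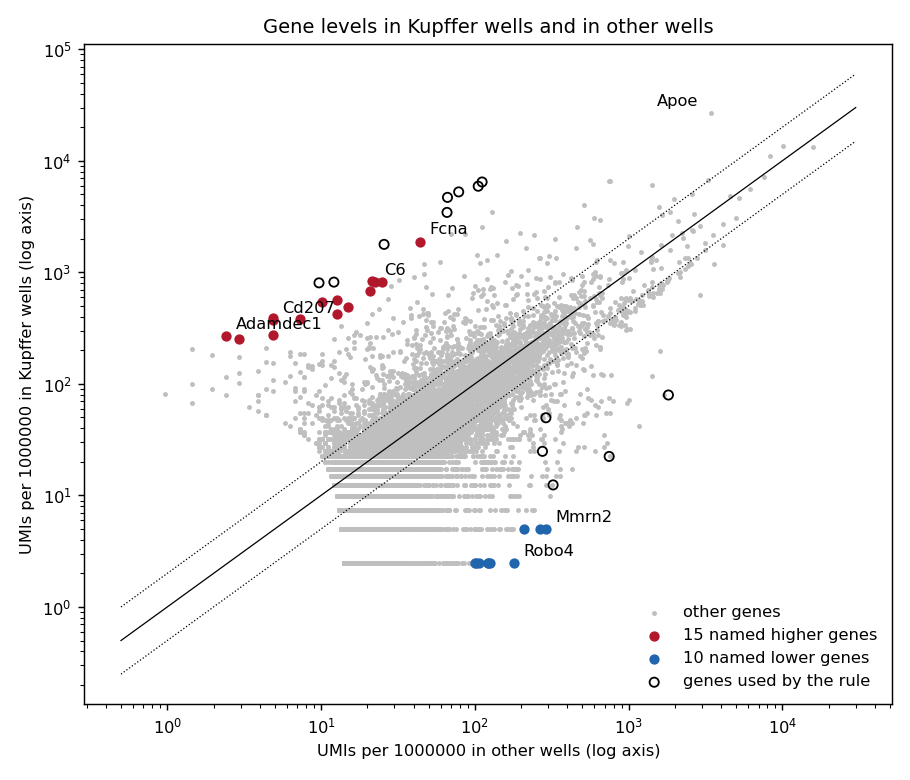
Levels of genes in the 315 Kupffer wells (vertical) and in the 2377 other wells (horizontal), both as UMIs per 1000000 on log axes; the solid line is equality and the dotted lines mark 2-fold. The 15 named higher genes lie above the upper dotted line beside the genes of the rule (open circles), and Apoe is the gene at 26804 against 3461.

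The 15 genes with the largest ratio among those with at least 100 UMIs were Adamdec1, Gbp1, C3ar1, Cd207, Fpr1, Marco, Lilra5, Cxcl13, Fcna, Cd163, C6, Nr1h3, Emr1, Il18bp and Cd14. For each of them the lowest Kupffer level of the 8 blocks lay above the highest level of other wells, as for 2.83% of all genes. Because the 15 were picked for their ratio in these same wells, and all 15 reached 100 UMIs only through Kupffer wells (other wells held 5, for Adamdec1, to 91, for Fcna), this describes the choice and adds no support. Receptors formed the largest group. Cd207, the lectin langerin, had block levels of 193, 343 and 726 (lowest, median, highest) against 0, 4.96 and 11.3 in other wells, 76.3-fold over all wells. The scavenger receptor Marco had 288, 501 and 789 against 0, 5.41 and 31.4, and the hemoglobin-haptoglobin receptor Cd163 had 320, 850 and 1560 against 9.43, 24.5 and 42.8. C3ar1, which binds the complement fragment C3a, had 270, 383.6 and 533 against 0, 5.75 and 11.3. The formyl peptide receptor Fpr1 had 111 UMIs in Kupffer and 10 in other wells, the immunoglobulin-like receptor Lilra5 153 and 15, and the endotoxin co-receptor Cd14 198 and 31. Emr1 (current symbol Adgre1), an adhesion receptor used to mark mouse macrophages, had 633, 763 and 1110 against 18.6, 23.8 and 55.2.

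Secreted proteins were the second group of the 15. Fcna encodes ficolin A, which starts the lectin pathway of complement, and had block levels of 1095, 1975 and 2579 against 24.9, 43.0 and 72.3, a log2 ratio of 5.42 (5.10 to 5.75). C6, a component of the membrane attack complex, had 544, 779 and 1290 against 4.597, 18.3 and 43.1. Il18bp, the soluble inhibitor of interleukin-18, had 616, 678 and 836 against 6.89, 24.7 and 36.8. The secreted metalloprotease gene Adamdec1 had the largest ratio, with 108 UMIs against 5, a log2 ratio of 6.79 (5.52 to 8.44), and was present in 58 Kupffer wells. Cxcl13, which attracts B cells, was the most uneven of the group, with block levels of 129, 296 and 1658 against 3.80, 14.3 and 25.2. The remaining members were the guanylate binding protein gene Gbp1 (Gbp2b in RefSeq), with 101 UMIs against 6, and Nr1h3, the oxysterol receptor LXR alpha, with block levels of 257, 389 and 552 against 7.53, 11.6 and 32.3.

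**Figure D2:**
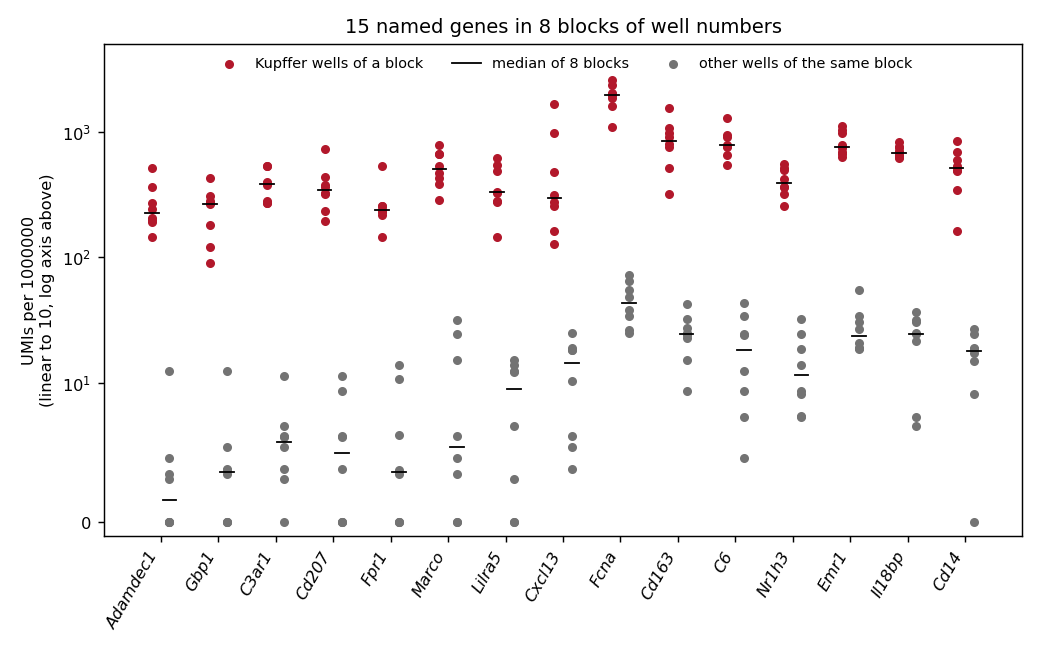
UMIs per 1000000 of the 15 named genes in Kupffer wells (red) and in other wells (grey) of each of 8 blocks of well numbers, with bars at the medians; the axis is linear to 10 and logarithmic above. For each gene the lowest red point lies above the highest grey point, and Cxcl13 has the widest red range, 129 to 1658.

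The 10 genes with the smallest ratio were Robo4, Mmrn2, Tinagl1, Ephb4, Itga1, Myct1, Tenc1, Adam23, Sox18 and Tmem88, each with 1 or 2 UMIs in Kupffer wells. For Itga1 alone of them the highest Kupffer block lay below the lowest of other wells, which held for 3.88% of all genes. This block comparison depends on the make-up of the other wells. Blocks 9, 10 and 11 held 3, 8 and 4 endothelial wells, and blocks 1 to 5 held 68 to 105 each. Adam23 in other wells was at 12.2 to 16.2 in blocks 9 to 11 and at 106 to 376 in blocks 1 to 5. Most are known from endothelium, such as the guidance receptor Robo4 and the transcription factor Sox18. Robo4 had 1 UMI in Kupffer and 372 in other wells, of which the endothelial wells gave a level of 599. The rule admits few wells with endothelial RNA, so the low side is partly set by the choice of wells.

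Scavenger and complement genes were among the lists with the largest medians. Of 18 scavenger and lectin receptors 17 had enough UMIs, 11 of them at least 2-fold higher and 5 lower, with a median log2 ratio of 2.11 against -0.34 for all genes. The shares were 64.7% and 29.4%, against 9.14% and 26.1% of all genes, so the lower share was near that of all genes. Marco, Cd163 and the sialoadhesin gene Siglec1 (40 UMIs against 3) led the higher side, followed by the lectin Clec4n (161 against 10.2), the macrosialin gene Cd68 (723 against 70.8) and the beta-glucan receptor Clec7a (417 against 49.9). Msr1, which binds modified lipoproteins, was at 380 against 88.3. On the lower side stood Clec4g (42.2 against 1164), Lyve1, Stab1, Stab2 and Cd36, which are receptors of sinusoidal endothelium. Mrc1, the mannose receptor, was at 1289 in Kupffer and 752 in other wells, but at 2426 in endothelial wells. Of 18 complement genes besides C1q, 15 had enough UMIs, 8 were higher and 2 lower, with a median of 1.68. Cfp, which stabilises the alternative pathway convertase, had block levels of 1625, 2179 and 2909 against 50.3, 79.1 and 108. The central component C3 was at 514 against 364, and the lowest member was Cd59a, an inhibitor of the membrane attack complex, at 32.3 against 334.

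Antibody receptors of the activating kind were high and the inhibitory one was low. Of the 14 Fc receptor and ITAM signalling genes all had enough UMIs, 10 were at least 2-fold higher and 1 lower, with a median of 1.98. The activating receptors Fcgr4 and Fcgr3 had block levels of 512, 820 and 922 against 11.3, 29.0 and 62.1, and of 1113, 1224 and 1694 against 37.7, 57.1 and 162. Their signalling chain Fcer1g was at 1346 against 339 and the related adaptor Tyrobp at 1952 against 564. The inhibitory receptor Fcgr2b was at 69.5 in Kupffer wells, with 28 UMIs in 20 wells, and at 2089 in endothelial wells (log2 ratio -4.91, -5.51 to -4.37). Fc receptor genes are similar in sequence and how the authors divided shared reads is not known.

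Genes for the uptake of dead cells went both ways between Kupffer and other wells. Of 15 efferocytosis genes 13 had enough UMIs, 6 were higher and 4 lower, with a median of 0.26. These shares were 46.2% and 30.8%, against 9.14% and 26.1% of all genes, so the lower share was near that of all genes. The receptor kinases Axl (925, 1203 and 1442 over blocks, against 30.4, 47.7 and 75.3) and Mertk (512 against 129), the integrin chain Itgb5 (469 against 23.8) and the uptake receptor Lrp1 (740 against 48.5) were higher. The bridging ligands Gas6 (24.8 against 91.2), Pros1 (67.1 against 137) and Mfge8 (1 UMI against 98) were at least 2-fold lower. So was the integrin chain Itgb3, with 4 UMIs against 98.

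Genes for the recovery of iron from red cells were high together. Of 21 iron and heme genes 19 had enough UMIs, 14 were at least 2-fold higher and 1 lower, with a median of 1.505. Slc40a1, the iron exporter ferroportin, had block levels of 1270, 2590 and 3359 against 32.3, 97.4 and 148, 22.6-fold over all wells. Hmox1, the heme oxygenase that opens the heme ring, had 397, 688 and 2027 against 10.8, 23.9 and 67.3. The phagosomal metal transporter Slc11a1 was at 579 against 27.2, the biliverdin reductase Blvrb at 402 against 43.6, and Spic, a factor of iron-recycling macrophages, at 86.9 against 4.85. The ferritin heavy chain Fth1 was at 3812 against 1573 and transferrin (Trf) at 2109 against 1004. The transferrin receptor Tfrc was the lower member, with 1 UMI against 49.

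The lysosome list, which was the longest, had the most members on the higher side. Its share was 75%, as for lipid and cholesterol genes, with 73.7% for iron and heme genes and 9.14% for all genes. Of 33 listed, 32 had enough UMIs, 24 were at least 2-fold higher and 1 lower, with a median of 1.65, and their summed level was 39188 against 8542. The cysteine protease Ctsb had block levels of 5605, 6585 and 8607 against 575, 739 and 870. Lysozyme (Lyz2) had 5047, 6332 and 8369 against 379, 816 and 1395, and the protease Ctss 3986 against 516 over all wells. Lyz1 and Lyz2 are near-identical and their reads may be divided between them. Legumain (Lgmn) was at 1912 against 160, whereas Ctsl was at 437 in Kupffer against 666 in other wells.

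All 16 lipid and cholesterol genes with enough UMIs (18 listed) differed at least 2-fold, 12 of them higher and 4 lower in Kupffer wells, with a median of 1.73. The shares were 75% and 25%, against 9.14% and 26.1% of all genes, so the lower share was near that of all genes. Apolipoprotein E (Apoe) had block levels of 23932, 25898 and 30264 against 2399, 3248 and 3547, and Kupffer wells exceeded endothelial wells (6197), which came next, 4.33-fold. After Nr1h3, the largest ratios were those of lipoprotein lipase (Lpl, 291 against 17.0) and of Pltp, which moves phospholipid between lipoproteins (924 against 85.3). The cholesterol esterifying enzyme Soat1 was at 196 against 32.5, and the cholesterol exporters Abca1 and Abcg1 at 256 against 53.8 and 246 against 109. The lower members were the fatty acid carriers Fabp4 (47.2 against 364) and Fabp5 (1 UMI against 88), Cd36 and Mylip. Of 15 eicosanoid genes 11 had enough UMIs, 7 were higher and 1 lower, with a median of 2.93. Hpgd, which inactivates prostaglandins, was at 1642 against 215 and the cyclooxygenase Ptgs1 at 651 against 97.0, while the leukotriene enzyme Lta4h was at 39.7 against 122. The inducible cyclooxygenase Ptgs2 had 1 UMI in each group.

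Class II antigen presentation genes went both ways between Kupffer and other wells. Of 13 class II genes 12 had enough UMIs, with 3 at least 2-fold higher, 3 lower and a median of 0.93. These shares were 25% each, against 9.14% higher and 26.1% lower of all genes, so the lower share was near that of all genes. Cd74 had block levels of 4286, 6486 and 11302 against 1819, 3104 and 6484, so the ranges overlapped, and H2-Aa 2774, 4767 and 8327 against 1717, 2249 and 5266. Both were below dendritic cell wells, which had 10394 of Cd74 and 9550 of H2-Aa. The 28 wells with only C1q markers raised these levels: without them Cd74 was at 5272, less than 2-fold above other wells. The costimulatory gene Cd86 was at 191 against 29.6, and H2-Oa, a B cell modulator of peptide loading, had no UMI against 175. None of the 9 class I genes differed 2-fold, and their median was -0.13 (0.16 when centred). Class I and class II genes have close copies that can share reads.

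Among 30 macrophage transcription factors 28 had enough UMIs, 12 were at least 2-fold higher and 4 lower, with a median of 0.15. The myeloid factors Sfpi1 (PU.1; 400 against 68.9), Cebpa (176 against 27.2) and Cebpb (820 against 158), and Zeb2 (609 against 110), were higher. Maf was at 1058 against 958, and at 2945 in endothelial and 196 in lymphoid wells. Runx3, of lymphocytes, was the lowest at 34.8 against 153. Of the 14 growth factor and migration receptors 8 were higher and 3 lower, with a median of 1.58. Csf1r, the receptor Kupffer cells depend on, had block levels of 2630, 3549 and 4083 against 89.5, 141 and 190, and was present in 82.2% of Kupffer wells (57.8% after thinning, 2.23% in lymphoid wells). The progenitor receptors Kit (7 UMIs against 284) and Flt3 (3 against 77) were lowest.

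Chemokine genes fell on both sides. Of 20 listed, 14 had enough UMIs, 6 were higher and 5 lower, with a median of 0.66. The shares were 42.9% and 35.7%, against 9.14% and 26.1% of all genes. The eosinophil attractant Ccl24 had 82 UMIs against 3, with block levels of 94.3, 209 and 469, and Ccl6 was at 1428 against 139. Ccl5, made by T and NK cells, was at 623 against 2911, and at 5191 in lymphoid wells. The interferon-induced Cxcl9 (350 against 247) and Cxcl10 (114 against 65.0) differed less than 2-fold. Ccl2, Cxcl2 and Cxcl1 had 8, 11 and 1 UMIs in all Kupffer wells and were under the minimum of 30 UMIs. Of 26 cytokines and receptors 19 had enough UMIs, 13 were higher and 1 lower, with a median of 1.49. Il1b had block levels of 257, 377 and 661 against 13.8, 84.5 and 184, and the growth factor Igf1 433, 686 and 907 against 60.3, 117 and 130. Tnf, Il6 and Il10 had 1, 2 and 1 UMIs in Kupffer wells, too few for a ratio. The TGF beta co-receptor Eng, of endothelium, was the lowest at 54.6 against 714.

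In the sensing lists, 7 of 14 pattern recognition genes with enough UMIs (21 listed) were at least 2-fold higher and 1 lower, with a median of 1.02. Tlr13 (57 UMIs against 25) and Tlr7 (57 against 52), sensors of microbial RNA, were on the higher side, and Tlr3 (3 against 65) was the lower one. Of 17 interferon response genes (19 listed) 6 were higher and none lower, with a median of 0.73; Irf7 had block levels of 631, 722 and 903 against 99.9, 120 and 224. Of 15 redox genes (17 listed) 9 were higher and none lower, with a median of 1.08, led by the oxidase subunit Cybb (1827, 2010 and 2939 against 155, 233 and 471). Of the 15 adhesion genes 4 were higher and 3 lower, with a median of 0.32; Vcam1, a ligand for lymphocyte integrins, was at 1279 in Kupffer, 318 in endothelial and 18.6 in lymphoid wells. Cycling genes were sparse: 8 of 13 had enough UMIs, none was higher and 3 were lower, and Mki67 had 7 UMIs in 315 wells. Of 20 dissociation and immediate early genes, which tissue digestion can raise, 5 were higher (Atf3, Zfp36, Hspa1a, Dusp1 and Fos) and 1 lower (Socs3), with a median of -0.01 (0.28 when centred). Dusp1 was at 797 against 331 and Fos at 248 against 106. The part of digestion in the other results was not tested.

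**Figure D3:**
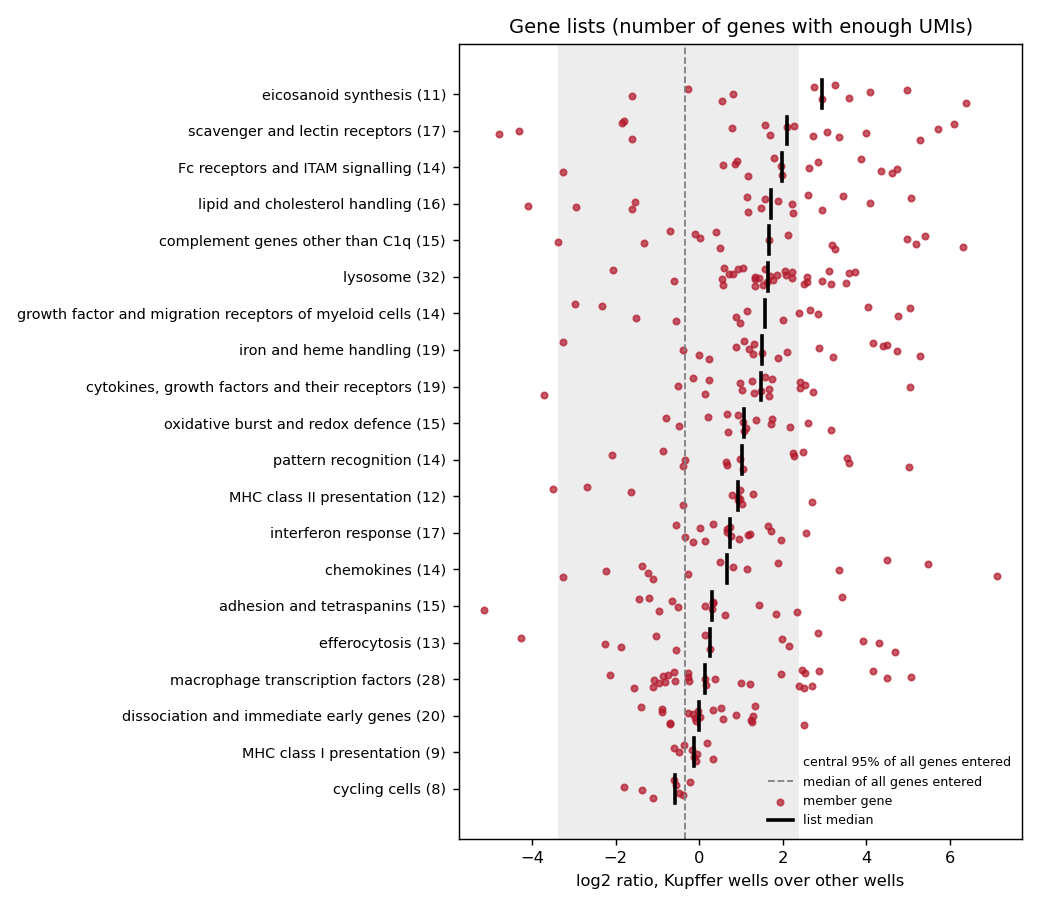
Log2 ratios of Kupffer over other wells for the members of 20 gene lists (red points; number with enough UMIs in brackets), with the list medians as black bars. The dashed line is the median of all genes (-0.34) and the grey band their central 95%; medians run from -0.58 for cycling genes to 2.93 for eicosanoid synthesis, and the point of H2-Oa (no Kupffer UMI) is a bound.

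In all, 315 distinct members of the 20 lists had at least 30 UMIs of 361 found; 159 were at least 2-fold higher and 42 at least 2-fold lower, against 9.14% and 26.1% of all genes. A gene of low count passes this minimum more easily if Kupffer wells express it, and the lists were chosen with earlier results of these data in view, so the counts describe the lists and support nothing further.

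Set against single classes of wells, the genes that separated Kupffer wells depended on the class. Endothelial wells (740) held at least 4 UMIs of Stab2, Clec4g, Egfl7, Oit3, Gpr182, Ptprb and Kdr, lymphoid wells (672) at least 2 UMIs of T, B and NK cell genes, and dendritic cell wells (149) at least 2 UMIs of dendritic genes such as Xcr1 and Siglech. At least 2-fold higher in Kupffer wells were 875 of 5949 genes (14.7%) against endothelial, 1008 of 6307 (16%) against lymphoid and 777 of 3947 (19.7%) against dendritic cell wells; lower were 24.1%, 24.5% and 16%. These comparisons share the Kupffer wells. Over the whole iron and heme list Kupffer wells had a summed level of 12602, dendritic cell wells 4187, endothelial wells 3667 and lymphoid wells 2585. For the iron exporter Slc40a1 and the prostaglandin enzyme Hpgd the endothelial wells, neighbours of Kupffer cells in the sinusoid, came next after Kupffer wells. Slc40a1 was at 2523 in Kupffer, 253 in endothelial, 28.7 in lymphoid and 19.3 in dendritic cell wells, and Hpgd at 1642, 609, 27.2 and 72.3. Dendritic cell wells came closest in the oxidase gene Cybb (795 against 2161) and in the cathepsin Ctsb (1614 against 6654). Csf1r separated Kupffer wells from all 3 classes, at 3497 against 59.4, 54.5 and 149.

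**Figure D4:**
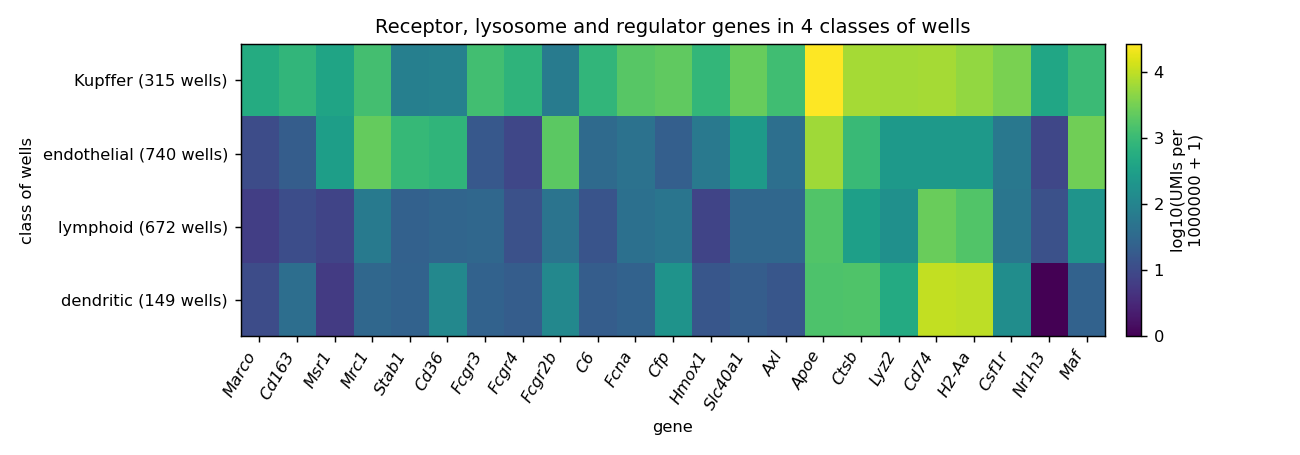
Levels of 23 genes in Kupffer, endothelial, lymphoid and dendritic cell wells, as log10 of UMIs per 1000000 plus 1 (colour; yellow is high). Mrc1 and Maf are high in both Kupffer and endothelial wells, Fcgr2b in endothelial wells, and Cd74 in Kupffer and dendritic cell wells.

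Variation between Kupffer wells was read after thinning as variance divided by mean. With few UMIs per well this ratio stays near 1 even where wells differ, so a low value does not show little variation. It also favours genes with many UMIs per well. After thinning to 300 UMIs, 428 genes had a mean of at least 0.1 UMI per well, and their variance divided by their mean, which is 1 for counting error, had a median of 1.202; 53 exceeded 1.5 and 16 exceeded 2. The most variable was Ccl5 (7.33), followed by Gm10925 (6.40), Gm11410, Gm13339, Apoe (3.23), albumin (Alb, 3.15), the nuclear RNA Malat1, Gm10801, Cd74 (2.73) and H2-Aa (2.50). The 4 Gm entries are predicted genes whose reads may be shared with near-identical copies. RefSeq lists Gm10925 as a pseudogene with the mitochondrial symbol mt-Atp6 as a synonym. Their levels differed between blocks in Kupffer and other wells alike. Gm10801 was at 1492 (Kupffer) and 1272 (other) in block 1, and at 0 and 47.2 in block 2. Gm10925 was at 22553 and 22151 in block 5, and at 10955 and 11645 in block 1. The part of blocks in these ratios was not tested. Cd74 and H2-Aa are the class II genes that were high in the 28 wells with only C1q markers.

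**Figure D5:**
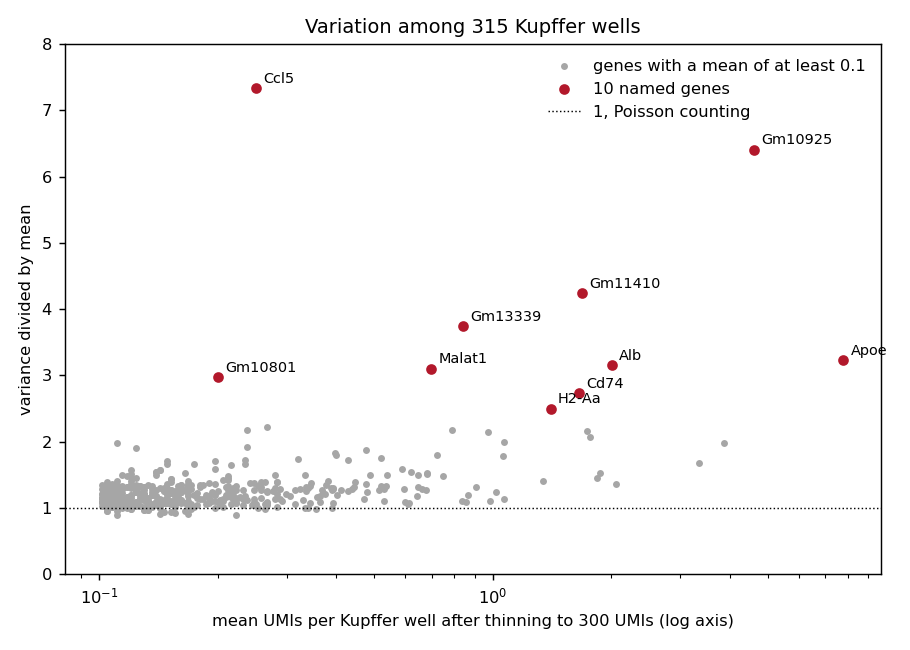
Variance divided by mean (vertical) against mean UMIs per well (horizontal, log axis) for genes other than the markers in 315 Kupffer wells thinned to 300 UMIs; the dotted line at 1 is counting error. Most genes lie between 1 and 1.5, and Ccl5 is highest at 7.33.

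A few genes were held by a handful of wells. For 24 of 635 genes with at least 100 UMIs in Kupffer wells (3.78%), 10 wells held at least 40% of the UMIs, while the median gene had 25.4% there. The interferon-gamma induced chemokine Cxcl9 was the most uneven, with 85.8% of 141 UMIs in 10 wells and 108 UMIs in 6. Of those 6 wells 4 had no UMI of the 5 markers other than C1q, and the other two had 3 and 1. The 6 wells highest in Cxcl13 (67.1% of 228 UMIs in 10 wells) had 19 to 135 UMIs of those 5 markers and 4 to 69 of Clec4f. Ccl5 (58.6% of 251 UMIs in 10 wells) was highest in wells with few marker UMIs: the 6 highest had 4 to 11, and 4 of them held UMIs of the cytotoxic granule gene Nkg7. Alox15, a lipoxygenase, had 33 UMIs in 3 wells, of which 2 had 24 and 8. Those 2 wells also held 12 and 10 UMIs of Prg4, 19 and 8 of fibronectin (Fn1) and 11 and 25 of C1q. They had 2 and 3 UMIs of the 5 other markers, with 2 of Cd5l in each and none of Clec4f, Vsig4 or Timd4. These wells were picked for their values, and the part of a second cell in a well was not tested.

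The 2 runs of well numbers gave 175 (lower) and 140 (upper) Kupffer wells, with median depths of 896 and 987 UMIs. Among the 635 genes with at least 100 Kupffer UMIs, 6 (0.945%) were at least 2-fold higher in the upper and 17 (2.68%) in the lower run, and the median log2 ratio was 0.00. Cxcl13 was at 817 in the lower and 187 in the upper run, Lilra5 at 479 and 231, and Timd4 at 1019 and 512. Ccl5 was at 281 in the lower and 1142 in the upper run, where other wells also held more (4145 against 2266). The class II genes were higher in the upper run, Cd74 at 8526 against 5433, which also held 18 of the 28 wells with only C1q markers. Mouse, age and library cannot be told apart from these runs.

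RNA of other liver cells was present in Kupffer wells to different degrees. The 13 hepatocyte genes summed to 9942 per 1000000 in Kupffer and 9752 in other wells (8247 to 13856 and 7041 to 14042 over blocks), all 13 were detected and none differed 2-fold; Alb gave 1955 of their 4003 UMIs. The 16 endothelial genes summed to 1187 against 9633, with none at 0. Over blocks they ranged from 454 to 2307 in Kupffer and from 1035 to 11056 in other wells, so the ranges overlapped. Of the 16 genes, 14 were at least 2-fold lower in Kupffer wells. Cdh5 gave 161 of their 478 UMIs and went the other way, at 400 against 281. The 10 T cell genes summed to 318 against 2128, the 8 B cell genes to 94.4 against 797 with Cd79a and Pax5 at 0, and the 6 NK cell genes to 89.4 against 913 with Eomes at 0. The 12 monocyte genes summed to 1279 against 1665, with Vcan at 0 and Plac8 leading. None of the 6 basophil and mast cell genes had a UMI. The part of these RNAs in the results was not tested.

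The pair table gave a readout of Kupffer RNA that the rule did not use. Pairs were placed along the liver lobule by 20 hepatocyte landmark genes, such as Glul and Cyp2e1 near the central vein and Cyp2f2 and Hal near the portal vein, and the pericentral 1537 and the periportal 1540 of 4618 pairs were compared. The 8 markers summed to 6.55 UMIs per 1000000 in pairs, with 373 UMIs in all; 107 were in pericentral, 116 in midlobular and 150 in periportal pairs. The log2 ratio of pericentral over periportal was -0.50 (-0.87 to -0.13), -0.28 (-0.59 to 0.02) when pairs were split at the median score, and -0.15 (-0.65 to 0.34) without the 44 pairs with 2 or more marker UMIs. The share of pairs with a marker UMI was 5.40% (4.32% to 6.65%) in pericentral, 5.91% in midlobular and 5.91% (4.78% to 7.21%) in periportal pairs, and these intervals overlapped.

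Markers in pairs did not all have the same sign. Clec4f had 8 pericentral and 22 periportal UMIs, Cd5l 23 and 37, and C1qb 45 and 27. Fcna had 89 pericentral and 60 periportal UMIs (log2 ratio 0.56, 0.07 to 1.05). Only 12 pairs held 4 or more marker UMIs, 3 pericentral, 2 midlobular and 7 periportal. In them Marco had 6 UMIs against 12 in the 4606 other pairs, whereas Fcna had 7 against 223. C6 stood at 184 in these 12 pairs and at 212 per 1000000 in the others. Clec4f had 46 UMIs in all pairs, although Kupffer wells held 2599 UMIs of Clec4f and 759 of Fcna. The source of the Fcna UMIs in pairs was not tested. Fewer attached Kupffer cells, less RNA per cell and transcripts released into the suspension cannot be told apart in such sums.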

How the data were processed

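The deposited tables hold raw counts: for each well, the authors gave whole numbers of UMIs per gene, from MARS-seq libraries of polyA RNA, per the labels' protocols. The submitters' processing notes name bcl2fastq 2.15.0.4 and the mm9 build. For the aligner and the annotation, the sources used here name nothing. The 92 ERCC spike-ins, which took 52.8% of UMIs in the single-cell table, were removed. The 68 symbols that differ only in capitals were left out of the genes compared and of the lists. Their UMIs stayed in the totals of the wells.

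Kupffer and comparison wells were taken by the rules given in the text, with at least 300 UMIs and no doublet caller, since cells had been sorted into wells. UMIs were summed over wells and given per 1000000 gene UMIs. Levels carry exact Poisson, ratios exact conditional binomial and shares exact (Clopper-Pearson) intervals at 95%. A gene needed 30 UMIs over both groups. Where a group had 0 UMIs, a floor of 3 counts over the group was used and the ratio is a bound. Shares were also computed after each well was thinned to 300 UMIs with a fixed seed. UMIs remove PCR copies.

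Named genes were the 15 largest and 10 smallest ratios among genes with at least 100 UMIs, per list the 4 members with most Kupffer UMIs and those with the highest and lowest ratio, the 10 most variable genes and the 8 markers. Other list members, Cxcl9, Cx3cr1, Ccr2, Prg4, Fn1 and Nkg7 were named after their values were seen. Members and lists were chosen with earlier results of these data known. All 508 listed symbols were found, 5 through RefSeq synonyms. The values of 1 list member are not reported here. Ratios were tested on simulated data. Scripts used Python 3.11.15, numpy 2.4.6, scipy 1.17.1, pandas 2.3.3 and matplotlib 3.10.9.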

Additional observations from a re-analysis of the deposited data

How the results depend on the processing

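Results were recomputed under 15 planned settings and 3 chosen after seeing the data (the blocks with Kupffer wells alone and each run of well numbers alone). Counts of genes moved with the number of UMIs behind them. Thinning each well to 300 UMIs left 520 genes at least 2-fold higher and 1461 lower against all other wells, and 343, 329 and 187 higher against endothelial, lymphoid and dendritic cell wells. A minimum of 100 UMIs per gene left 462 higher and 1160 lower, and 344, 385 and 244 against those classes. A minimum of 10 gave 1467, 1677 and 1595 against them. The lower run of well numbers alone held 175 Kupffer wells and had 85 genes with a variance over mean above 1.5, against 53. The upper run alone held 140 Kupffer wells, 1361 genes at least 2-fold lower, and 483, 463 and 357 higher against the 3 classes.

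Of 97 named genes past 2-fold, 89 to 97 stayed past it in each setting other than the minimums of 10 and 100 UMIs per gene, for which named genes were not recounted. Cd74 was lost most often, and no named gene past 2-fold changed sign in those settings. The list median of dissociation genes, near 0, changed sign in most settings, and those of efferocytosis (-0.09 after thinning), transcription factors (-0.10 without the deepest 5% of wells) and class I genes (0.16 when centred) did in few. No paired analysis was possible because the wells carry no mouse number. Depth limits what absence from 1 well means: the median Kupffer well held 948 UMIs.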
